A study of Mus musculus with 2 samples.

Results

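The regions described are the open-chromatin peaks of mouse regulatory T cells that lie in the first intron of a protein-coding gene, away from promoters. They were chosen by position alone. Peaks of the authors' IDR-thresholded list were reduced to 1 summit per interval, that of highest signal. IDR, the irreproducible discovery rate, is a filter on how alike sets of calls rank. Which calls were compared is not given in the sources used here. A peak was kept when its summit lay more than 1 kb from every annotated transcription start site (TSS), outside all exons, and inside the first intron of a principal transcript, the main isoform of a gene in the annotation. Of 34610 peaks, 3549 met the rule (10.3%, exact 95% interval 9.94 to 10.6%), which is 31.4% of all 11289 intronic peaks. The assay was ATAC-seq, in which the Tn5 transposase cuts accessible DNA. The cells were primary regulatory T cells of the Foxp3CreERT2 x Rosa26YFP strain, male and aged 4 months, and the number of animals is not given in the labels. In this strain an inducible Cre recombinase is driven from Foxp3 and a yellow fluorescent reporter sits at Rosa26, and the labels trace the cells to bone marrow haematopoietic cells and state no treatment. Both libraries are technical replicates of 1 biological replicate and were pooled before peaks were called, so no spread between samples can be given and no comparison between conditions was possible.

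The first intron begins at the end of the first exon and is usually the longest intron of a gene. Lying close to the promoter, it is a common site of enhancers and silencers, short stretches of DNA that transcription factors bind to raise or lower transcription. In T cells, a silencer in the first intron of Cd4, the coreceptor gene of helper T cells, and a CpG-rich element in the first intron of Foxp3, the gene of the factor that defines regulatory T cells, are textbook cases.

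The DNA at the summits of 7 peaks is shown to let the sites behind the results be read directly. They are the strongest first-intron peak of Foxp3, of Il2ra (the interleukin-2 receptor alpha chain, CD25) and of Cd4, and the first-intron peak of highest signal with a match to each of 6 motif families: CTCF, ETS, RUNX, AP-1, NF-kB and the composite of BATF and IRF. Each line is 200 bases of the plus strand of mm10 (GRCm38.p6), 5′ to 3′, and capitals mark matches on either strand to these 6 families or to TCF/LEF, STAT, CREB and E protein motifs.
Foxp3, chrX:7583951-7584150: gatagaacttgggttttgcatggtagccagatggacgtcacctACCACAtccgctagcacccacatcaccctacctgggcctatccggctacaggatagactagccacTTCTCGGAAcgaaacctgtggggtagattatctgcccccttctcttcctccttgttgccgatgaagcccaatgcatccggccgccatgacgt
Il2ra, chr2:11664054-11664253: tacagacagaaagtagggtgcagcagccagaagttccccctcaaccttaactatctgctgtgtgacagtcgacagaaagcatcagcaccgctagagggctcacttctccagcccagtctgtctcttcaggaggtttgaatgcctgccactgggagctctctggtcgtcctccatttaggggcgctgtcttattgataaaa
Cd4, chr6:124885250-124885449: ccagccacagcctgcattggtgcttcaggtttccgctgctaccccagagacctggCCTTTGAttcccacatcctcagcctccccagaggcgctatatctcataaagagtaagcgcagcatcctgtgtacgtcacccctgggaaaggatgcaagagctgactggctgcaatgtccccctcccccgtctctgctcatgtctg
Rere, chr4:150338981-150339180: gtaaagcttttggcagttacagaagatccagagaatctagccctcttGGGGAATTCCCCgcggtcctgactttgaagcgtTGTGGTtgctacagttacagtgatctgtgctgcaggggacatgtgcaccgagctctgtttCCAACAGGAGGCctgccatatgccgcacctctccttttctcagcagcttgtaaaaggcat
Dnah6, chr6:73210538-73210737: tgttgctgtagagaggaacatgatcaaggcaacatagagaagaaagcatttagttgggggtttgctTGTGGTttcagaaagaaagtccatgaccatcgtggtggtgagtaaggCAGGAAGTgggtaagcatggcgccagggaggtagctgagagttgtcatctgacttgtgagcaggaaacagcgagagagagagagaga
Jazf1, chr6:53038289-53038488: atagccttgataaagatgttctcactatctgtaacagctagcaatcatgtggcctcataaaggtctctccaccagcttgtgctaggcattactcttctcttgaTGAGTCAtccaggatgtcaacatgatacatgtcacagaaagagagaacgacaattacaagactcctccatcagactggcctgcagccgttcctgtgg
Dthd1, chr5:62815852-62816051: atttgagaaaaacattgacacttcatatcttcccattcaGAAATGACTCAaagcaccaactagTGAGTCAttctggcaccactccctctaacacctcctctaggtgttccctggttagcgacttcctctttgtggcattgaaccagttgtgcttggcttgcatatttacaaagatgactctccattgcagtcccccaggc
All 7 summits are intronic by the rule, which was applied to the summit base and not to the rest of the window. The Foxp3 window holds a RUNX match (TGTGGT, here as its complement), a STAT match (TTCNNNGAA) and 9 CpG dinucleotides, against 4 in the Il2ra window and 5 in the Cd4 window. The Cd4 window holds a TCF/LEF match (CCTTTGA), and the Il2ra window holds no match to the families searched. The Rere window, in the gene of a nuclear corepressor, joins matches to NF-kB, RUNX and CTCF. The Dnah6 window, in a dynein heavy chain gene, joins a RUNX and an ETS match (CNGGAAGT). The Jazf1 window, in a zinc finger gene, has a single AP-1 match (TGANTCA). The Dthd1 window, in a death domain gene, has an AP-1 match inside a BATF-IRF composite and a second AP-1 match farther downstream. A match describes the letters and is not evidence of binding.

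The label of the cells was checked on marker genes. All 7 T cell markers and all 5 regulatory T cell markers had a peak within 1 kb of a TSS, and none of 4 B cell, 4 myeloid and 3 NK cell markers did. The peak of Foxp3 lay at another start than those of its principal transcripts, so by the definition of an open promoter used below Foxp3 has none. Of the 2 CD8 markers, Cd8b1 had one and Cd8a had none. The wider gene lists used below were less clear-cut. There, 3 of 10 B cell, 1 of 4 NK cell and 0 of 8 myeloid genes with eligible first-intron sequence had a peak within 1 kb of a principal TSS. In the regulatory T cell list 12 of 17 did. No read counts accompany the lists, which leaves the depth unknown. All intervals below cover counting error only. Those on densities treat peaks as independent and do not cover their clustering within genes.

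First introns held more peaks per length than the rest of the gene body. In sequence open to the rule, which excludes promoters, exons and assembly gaps, the density was 16.1 peaks per Mb (exact Poisson 95% interval 15.5 to 16.6) over 221 Mb. Later introns of principal transcripts held 5872 peaks at 10.2 per Mb (9.93 to 10.5), and intergenic sequence held 6.11 per Mb (5.98 to 6.24). The ratio of first to later introns was 1.58 (1.51 to 1.64) and that of first introns to intergenic sequence 2.63 (2.53 to 2.73). Intron 2 held 12.02 peaks per Mb (11.4 to 12.6). Introns 3 and 4 were close to each other, at 10.7 and 11.1, and introns from number 5 on held 9.18 per Mb (8.85 to 9.52). The ratio depended on which peaks were counted: with peaks at or above the median signal it was 1.10 (1.02 to 1.18), and with peaks at or above the median −log10 p, an alternative chosen after seeing the data, 1.73 (1.61 to 1.85).

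First introns were denser than later introns at equal distance from the start up to 50 kb, and sparser beyond 100 kb. Distance was taken to the start of the principal transcript whose first intron holds the summit, the nearest where several do. Other principal starts of a gene were not considered. The median first-intron summit lay 13.9 kb from this start (quartiles 5.72 and 30.7 kb). Within 10 kb lay 1398 summits (39.4%, 37.8 to 41.0%), against 25.9% of those at or above the median signal. At 1 to 2 kb the first intron held 28.0 peaks per Mb against 19.1 in later introns at the same distance. At 10 to 20 kb the densities were 21.98 and 15.29, a ratio of 1.44 (1.30 to 1.58), and at 20 to 50 kb 17.0 and 14.4, a ratio of 1.19 (1.09 to 1.29). The ratio was 0.936 (0.827 to 1.06) at 50 to 100 kb and 0.798 (0.675 to 0.939) beyond 100 kb. Against intergenic sequence upstream of starts, the first intron was denser in all 7 distance bins, by 1.37 to 2.11 times, and each of the 7 intervals lay above 1. Repeats were kept in the eligible sequence, and their part in these ratios was not tested. In all 3 kinds of sequence the density at 2 to 5 kb was below that at 1 to 2 kb and at 5 to 10 kb.

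**Figure D1:**
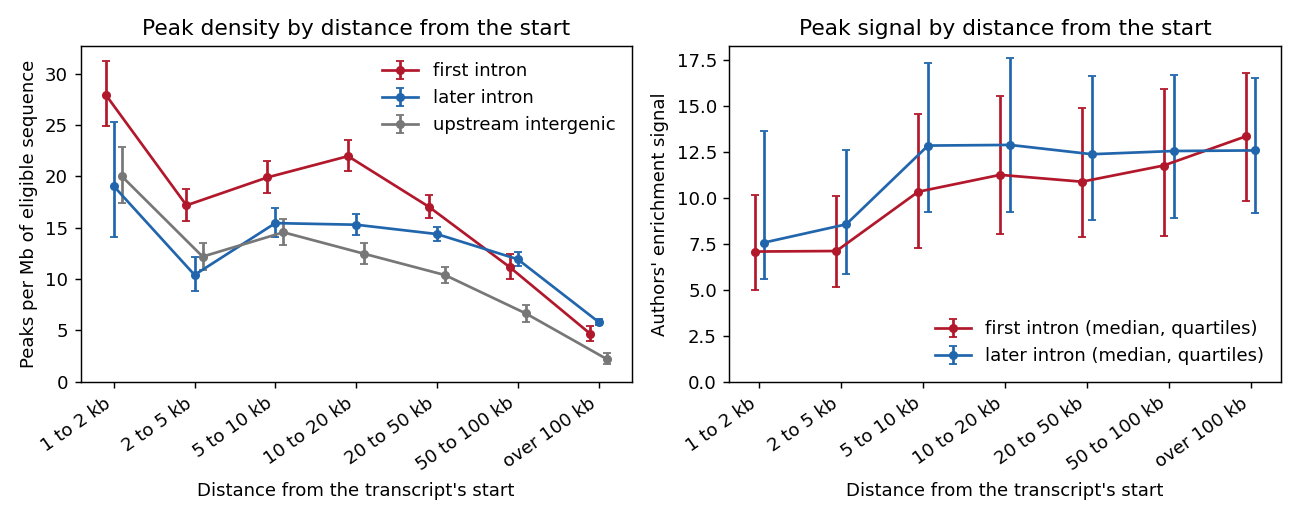
Left, peaks per Mb of eligible sequence against distance from the transcript's start, with exact Poisson 95% intervals; right, the authors' enrichment signal as median and quartiles. First introns (red) start at 28.0 per Mb and meet later introns (blue) at 50 to 100 kb, while the signal of both steps up at 5 kb.

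First-intron peaks had a lower enrichment signal than later-intron peaks and a slightly higher −log10 p. The signal, the authors' value per peak, had a median of 10.1 (quartiles 6.98 and 14.4), against 12.5 in later introns, 12.7 in intergenic sequence and 15.4 at promoters. The authors' −log10 p had a median of 85.2 in first introns, 80.8 in later ones, 85.4 in intergenic sequence and 232 at promoters, and the median widths were 550 and 560 bp. The median signal of all peaks, 13.2, was reached by 1099 first-intron peaks (30.97%), and the median −log10 p of all peaks by 1300 of the 3549. The signal was lowest close to an open promoter. In steps of 1 kb from the nearest promoter peak, the median signal was 5.96, 6.40, 6.28 and 7.06 from 1 to 5 kb, then 10.3, 10.2, 11.1, 11.1 and 11.1 from 5 to 10 kb, and 11.6 beyond. The −log10 p did not step up at 5 kb. Its medians were 79.2, 95.8, 92.5 and 95.7 from 1 to 5 kb. They were 78.7, 82.8, 85.5, 78.7 and 96.0 from 5 to 10 kb, and 84.0 beyond. First-intron peaks within 5 kb of a promoter peak numbered 723 (20.4%) and had a median signal of 6.35 and a median −log10 p of 89.3. The other 2826 had medians of 11.4 and 84.5.

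A step was present outside first introns too. Later-intron peaks within 5 kb of a promoter peak had a median signal of 7.78 against 12.7 farther away, and intergenic peaks 6.96 against 13.3. First introns had the lowest median of the 3 classes both within 5 kb and farther away. The share of peaks within 5 kb was 5.65% in later introns and 8.82% in intergenic sequence, against 20.4% in first introns. The reference against which the signal was computed is not given in the sources used here, and its part in the step was not tested. At the edge of the rule, 136 members with a TSS between 1 kb and 1200 bp away had a median signal of 7.48, and 180 first-intron summits left out for a TSS between 800 bp and 1 kb away had 7.66.

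Whether a gene had a first-intron peak went with the state of its promoter and the length of the intron. Of 14548 protein-coding genes with eligible first-intron sequence, 1885 (13%) had at least 1 peak, among them 1173 with 1, 353 with 2, 167 with 3 and 81 with more than 5. With peaks at or above the median signal alone the share was 5.93%. Of 7615 genes with a peak within 1 kb of a principal TSS, 20.2% (19.3 to 21.1%) had one, against 5.02% (4.52 to 5.56%) of the other 6933. Per length the gap was wider, at 30.9 (29.8 to 32.0) against 4.23 (3.88 to 4.60) peaks per Mb. Genes with an open promoter held 3042 (85.7%) of the first-intron peaks. The 2 measures are not fully separate, because peaks of any class counted towards an open promoter. A first-intron peak whose interval reaches within 1 kb of a principal TSS can itself make its gene's promoter open. How often this occurred was not counted. Within genes of 20 to 50 kb of eligible first intron, the shares were 52.1% and 13.9%, and over 100 kb they were 69.2% and 14.0%. With an open promoter the density stayed between 23.4 and 35.2 peaks per Mb up to 100 kb and was 22.5 beyond, while without one it was 9.89 at 5 to 10 kb and 1.43 over 100 kb.

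**Figure D2:**
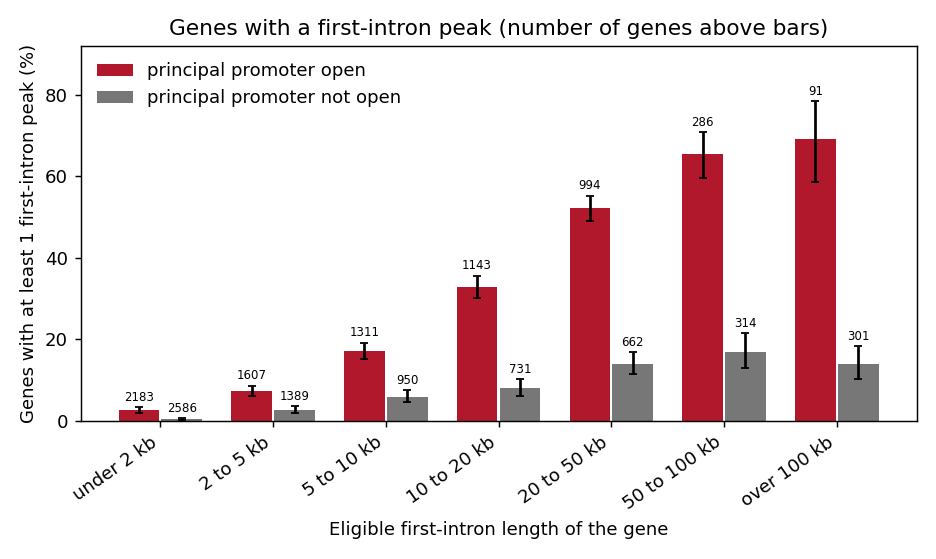
Percent of genes with at least 1 first-intron peak (bars) by eligible first-intron length, for genes with and without a peak at a principal promoter, with exact 95% intervals and the number of genes above each bar. The open group climbs from 2.52% under 2 kb to 69.2% over 100 kb, and the other group stays at or below 16.9%.

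By count, peaks were spread along the intron, with the largest share in its most 5′ part. In introns of at least 10 kb, 12.8% (11.6 to 14.1%) of 2929 summits lay in the most 5′ of 10 equal parts, and each of the other 9 parts held 9.35 to 10.2%. The rule leaves out sequence within 1 kb of a TSS, which includes the start of the intron. These shares were not set against eligible length, so they do not give the density along the intron. Neighbouring peaks of 1 intron were a median of 6.81 kb apart, and 39.7% of these gaps were under 5 kb. The 100 genes with most peaks held 23.7% of the 3631 pairs of a peak and a gene, and 5.17% of the eligible sequence. They were ranked by these same counts, so the excess is a description.

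The genes with most first-intron peaks were of mixed function. Gm20388 led with 81, but its annotated intron of 4.38 Mb on chromosome 8 spans 71 other coding genes, and 55 of its peaks lie in no other first intron. Leaving it out changed the first-to-later ratio to 1.57 and the density beyond 100 kb to 3.35 per Mb. Next came Tox, a nuclear factor of T cell development, with 18 peaks in 147 kb, and Prkch, a protein kinase C expressed in T cells, with 17 in 62.0 kb. Pip4k2a, a phosphoinositide kinase, had 16, Ext1, a heparan sulphate polymerase, 15, and Hivep2, a zinc finger factor, 15. Bcl2, the inhibitor of apoptosis, and Fam107b had 13 each, and Ankrd44 and Sntb1 had 12 each. Among genes with at least 5 peaks, the densest were Fam169b (418 per Mb), Nrip1 (359), B3gnt2 (305), Ago2 (283) and Prkch (274), against 15.95 per Mb over all genes. Ubash3b, which restrains T cell receptor signals, had 12 first-intron peaks and Maml2 11 with no peak at a principal promoter. At the other end, the longest first introns without a peak were those of Hs6st3 (719 kb), Sgcz (700 kb) and Il1rapl1 (685 kb), none with an open promoter. These genes were chosen for their counts, so the counts are a description.

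Of 6 genes followed in full, the 4 with eligible first-intron sequence all had peaks there. Foxp3 had 1, with a signal of 10.1 and a −log10 p of 215. It lay 3.57 kb from the nearest start among the principal transcripts whose first intron holds it. Il2ra had 6 in 29.6 kb, with summits from 2.65 to 21.3 kb and signals of 4.78, 9.37, 4.49, 3.98, 5.86 and 9.84 in order from the start. Ctla4, an inhibitory receptor gene, had 2 in 2.25 kb, at 1.98 and 2.74 kb, with signals of 4.74 and 3.09. Cd4 had 2, and they were unequal: 3.88 at 2.22 kb and 19.1 at 2.87 kb, the latter with a −log10 p of 489. The stronger Cd4 peak lay above the median signal of first-intron peaks, 10.1, the Foxp3 peak sat at it, and the other 9 peaks of these 4 genes lay below it. Ikzf2, which encodes Helios, and Tnfrsf18, which encodes GITR, have principal first introns of 1.52 and 0.778 kb that hold no eligible sequence.

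**Figure D3:**
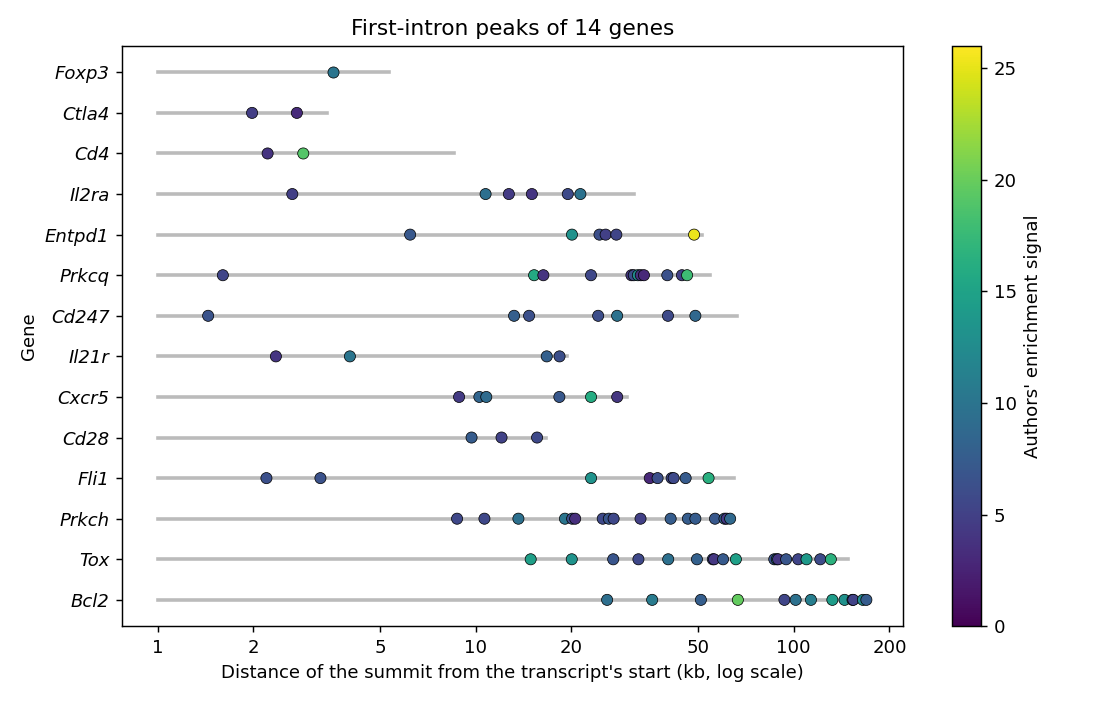
Position of each first-intron peak (dots) of 14 genes by distance from the transcript's start, on a log axis in kb, with the authors' signal as colour and the intron's extent in grey. The peaks lie along the length of the long introns, from 1.44 kb in Cd247 to 169 kb in Bcl2, and the brightest dot is that of Entpd1 at 48.6 kb.

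Over the regulatory T cell list, 11 of 17 genes with eligible sequence had a first-intron peak (64.7%, 38.3 to 85.8%), against 13% of all genes. The list held 163 peaks per Mb (104 to 242) against 15.95, and its median gene had 1 peak against 0. Entpd1, the ectonucleotidase CD39, had 6 with signals from 4.88 to 25.2, the highest of them 48.6 kb from the start. Itgae, the integrin CD103, had 2 without a peak at its principal promoter. Gpr83 and Nrp1, a semaphorin coreceptor, had open promoters and no first-intron peak.

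T cell receptor signalling genes were covered to a like extent. Of 22 genes, 15 had a peak (68.2%, 45.1 to 86.1%) at 103 per Mb (75.9 to 136), and all 22 had open promoters. Their median eligible length was 14.4 kb, and 32.8% of all genes with an open promoter and 10 to 20 kb had a peak. Prkcq, the protein kinase C theta of the receptor complex, had 12 in 46.9 kb, and its signals ran from 3.04 to 17.8. Its 3 strongest, at 15.3, 32.4 and 46.2 kb, had signals of 15.8, 12.6 and 17.8, and the other 9 were at most 6.40. Cd247, the CD3 zeta chain, had 7 peaks of a narrow range (5.87 to 9.83). Grb2 and Malt1 had none.

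Among lymphocyte transcription factors 24 of 32 had a first-intron peak (75%, 56.6 to 88.5%), at 84.7 per Mb. The list's introns are long, with a median of 25.04 kb eligible against 4.34 kb over all genes. Tox had 18 with signals from 4.08 to 16.6, Bach2, a repressor that keeps T cells resting, had 11 (4.13 to 14.7), and Fli1, an ETS factor, had 9 (2.89 to 16.4). Zeb2 with 77.2 kb and an open promoter, and Ikzf3 with 26.1 kb and none, had no peak.

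The other lists are set beside 13% of all genes, 20.2% of genes with an open promoter, and 15.95 peaks per Mb, none of them matched for length. Median eligible lengths were 26.6 kb in the GTPase list, 12.5 kb for costimulatory, 8.50 kb for cytokine and 2.85 kb for chemokine receptors, and 7.46 kb for restraint genes. Over all genes it was 4.34 kb. Among all genes with an open promoter, the share with a peak was 32.8% at 10 to 20 kb and 52.1% at 20 to 50 kb. Cytokine receptors had a peak in 11 of 19 genes (57.9%, 33.5 to 79.7%) at 106 per Mb, with 4 in Il21r and 3 in Tgfbr2, and none in Il12rb2 and Ifnar2. Costimulatory and inhibitory receptors had one in 9 of 12 (75%, 42.8 to 94.5%) at 123 per Mb, with 3 each in Cd200r1, Tnfrsf1b and Cd28, and none in Btla and Tigit. Chemokine receptors and homing genes had one in 5 of 16 (31.2%, 11.02 to 58.7%) at 82.4 per Mb (46.1 to 136), a share whose interval includes that over all genes. Cxcr5, the receptor of follicular T cells, had 6 with signals from 4.13 to 15.97, Itgb2 had 3 and Ccr9 2, and Itgb1 and Ccr7 had none. The list of GTPase and cytoskeleton regulators, which also holds the protein kinase C gene Prkch, had one in 12 of 15 (80%, 51.9 to 95.7%) at 112 per Mb. Prkch gave 17 of its 61 peaks, and the density without it was not computed. Elmo1 and Dock10 had 8 each, while Dock8 and Stk4 had none. Genes that restrain T cell signals had one in 4 of 13 (30.8%, 9.09 to 61.4%) at 43.1 per Mb (14.0 to 101), and both intervals include the value over all genes. They were led by Dgkz, Inpp5d and Ptpn22, and Rc3h1 had none. This list does not include Ubash3b, described above with 12 first-intron peaks.

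For lists of other lineages the numbers of genes were too small to set their shares apart from the 13% over all genes. B cell genes had 0 of 10, an upper limit of 30.8%, myeloid genes 0 of 8 (36.9%), NK cell genes 0 of 4 (60.2%), hepatocyte genes 0 of 7 (41.0%) and muscle genes 0 of 12 (26.5%). The B cell list included Bank1 with 40.8 kb and Blk with 28.2 kb, and the muscle list Dmd with 185 kb. Each of these upper limits lies above 13%. Neuron genes had 1 of 12 (0.211 to 38.5%), Dlg4 with 2 peaks, and Rbfox1 and Syt1, each with over 100 kb, had none. Of the 10 housekeeping genes, all with open promoters, only Psmb2 had a peak (10%, 0.253 to 44.5%), at 16.1 per Mb. Open promoters were found in 3 of 10 B cell, 1 of 4 NK cell, 1 of 12 neuron and 1 of 12 muscle genes. Myeloid and hepatocyte genes had 0 of 8 and 0 of 7.

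The first-intron peaks of highest signal lay in genes of mixed function. They were in Creb3l1 (30.996), Dnah6 (29.8), the microtubule polymerase gene Ckap5 (29.5), Rere (29.1), the chemokine gene Ccl28 (28.8), Nhsl2 (28.8), Ankrd13b (28.5), Zfp395 (28.4), Gm17655 (27.5) and Jazf1 (27.5). These values chose the genes and are a description. The first peak, in Creb3l1 (chromosome 2, 92008190 to 92008847), and that of Ccl28 (chromosome 13, 119631597 to 119632150) are CpG-rich, with 63.5% and 69% G and C at the summit. CpG-rich windows (at least 55% G and C and a CpG ratio, observed over expected, of at least 0.6) made up 88 of the first-intron peaks (2.48%, 1.99 to 3.05%), against 1.21% in later introns and 4.51% in intergenic sequence. They were 13.1% (9.57 to 17.3%) of the peaks at 1 to 2 kb and 0.620% (0.202 to 1.44%) at 10 to 20 kb. Beyond 100 kb the share was 3.68% (1.36 to 7.84%).

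Some motif families were more frequent at summits than beside them, among them families of lymphocyte factors and of general factors. Each 200-base window at a summit was set against windows 1 kb to either side that overlap no peak. The ETS motif lay in 16.6% of summit windows and 2.48% of flanks, a ratio of 6.68 (5.61 to 8.01). The PU.1 form of the ETS motif (GAGGAAGT), whose letters overlap the ETS consensus, had a ratio of 5.15 (3.99 to 6.70). NF-kB had 7.38% against 1.90%, a ratio of 3.89 (3.13 to 4.86). AP-1 had 13.2% against 5.94%, 2.22 times (1.93 to 2.54), and RUNX, the most frequent of these, 27.8% against 15.8%, 1.76 times (1.61 to 1.92). Forkhead (GTAAACA), the family of Foxp3, had 4.11% against 2.56%, 1.61 times (1.28 to 2.02). The palindromic CREB site (TGACGTCA) was rare but nearly absent from flanks, with 39 of 3549 summit windows against 2 of 6485. KLF/SP (GGGCGGG) had a ratio of 3.45 (2.66 to 4.50) and the MYC and USF E-box (CACGTG) 2.02 (1.62 to 2.51). TCF/LEF had 1.22 (0.99103 to 1.50045), T-box (AGGTGTGA) 1.15 (0.769 to 1.70) and STAT5 (TTCCNNGAA) 0.882 (0.686 to 1.13), all with intervals that include 1. NFAT (TTTTCCA, 0.673) and Ikaros (TGGGAAN, 0.597) lay below 1, and STAT, GATA, MYB and MEF2 had intervals that include 1. Summit windows had 48.5% G and C and flanks 45%, and the part of this difference in the motif ratios was not tested.

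**Figure D4:**
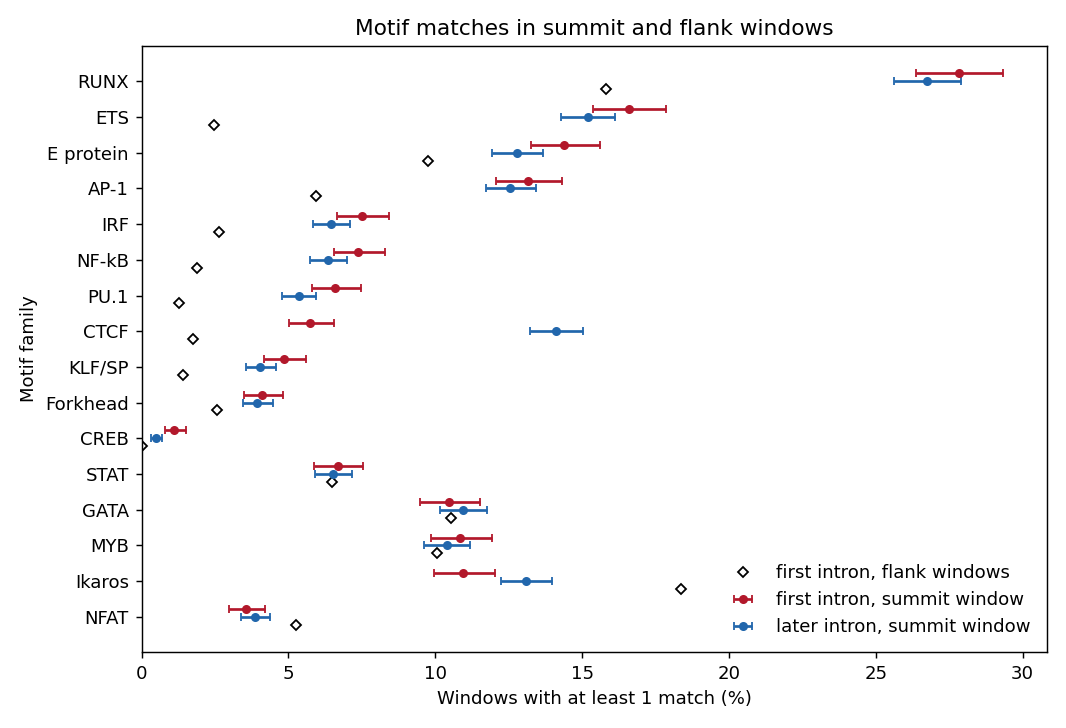
Percent of 200-base windows with a match to each motif family, at summits of first-intron peaks (red) and later-intron peaks (blue), with exact 95% intervals, and in flank windows of first-intron peaks (diamonds). Red and blue lie close together for most families, and CTCF is the exception, at 5.75% and 14.1%.

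At least 1 of the 6 families was present in 57.2% of first-intron summit windows and in 25.6% of flanks, and 2 or more in 13.2% against 2.34%. Of 15 pairs of families, 14 met in 1 window less often than the product of their shares gives, the exception being AP-1 with BATF-IRF, since an AP-1 site lies inside all 30 of those matches. CTCF met with ETS in 11 windows against 33.9, RUNX with NF-kB in 44 against 72.9, and ETS with RUNX in 142 against 164. KLF/SP sites varied with distance, with 8.63% of summits at 1 to 2 kb, 3.47% at 10 to 20 kb and 5.52% (2.56 to 10.2%) beyond 100 kb. Windows mostly made of repeats (at least 50% of bases) made up 3.72% of summits and 17.1% of flanks.

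First and later introns shared most motifs and parted at CTCF, the insulator protein that anchors chromatin loops. A CTCF match lay in 204 first-intron windows (5.75%, 5.00 to 6.57%), in 829 later-intron windows (14.1%, 13.2 to 15.03%) and in 16.1% of intergenic windows. The ratio of first to later introns was 0.407 (0.348 to 0.475), while flank windows held one in 1.74% and 1.66%. The summit-to-flank ratio was thus 3.30 in first and 8.50 in later introns, and that of first introns was 6.91 in windows of 100 bases and 2.05 with peaks at or above the median −log10 p. Of the other families, CREB was more frequent in first introns (ratio 2.30, 1.38 to 3.89), as were PU.1 (1.23, 1.04 to 1.47) and E protein sites (CAGCTG; 1.13, 1.01 to 1.26), and Ikaros was less frequent (0.838, 0.740 to 0.948). The intervals of ETS, RUNX, AP-1, NF-kB, IRF and STAT all include 1.

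The CTCF share climbed with intron number. It was 9.82% (8.35 to 11.4%) in intron 2, 11.7% (9.65 to 14.1%) in intron 3, 13.4% (10.8 to 16.3%) in intron 4 and 17.2% (15.8 to 18.6%) from intron 5 on. The difference was present at equal distance from the start: at 5 to 10 kb the shares in first and later introns were 5.92% and 17.6%, at 10 to 20 kb 5.58% and 16.2%, and at 20 to 50 kb 4.49% and 15.8%. Beyond 100 kb they were 7.98% (4.31 to 13.3%) and 10.2% (8.67 to 11.8%), at 1 to 2 kb 3.83% and 8.33%, and at 2 to 5 kb 8.595% and 14.84%, in these 3 bins with intervals that overlap. With peaks at or above the median signal the shares were 6.64% and 15.9%. In genes with an open promoter they were 5.13% and 13.6%, and in the others 9.47% (7.06 to 12.4%) and 15.8% (14.0 to 17.8%). A stricter CTCF consensus, chosen after seeing the data, gave 2.90% and 8.89%, a ratio of 0.326 (0.262 to 0.404).

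**Figure D5:**
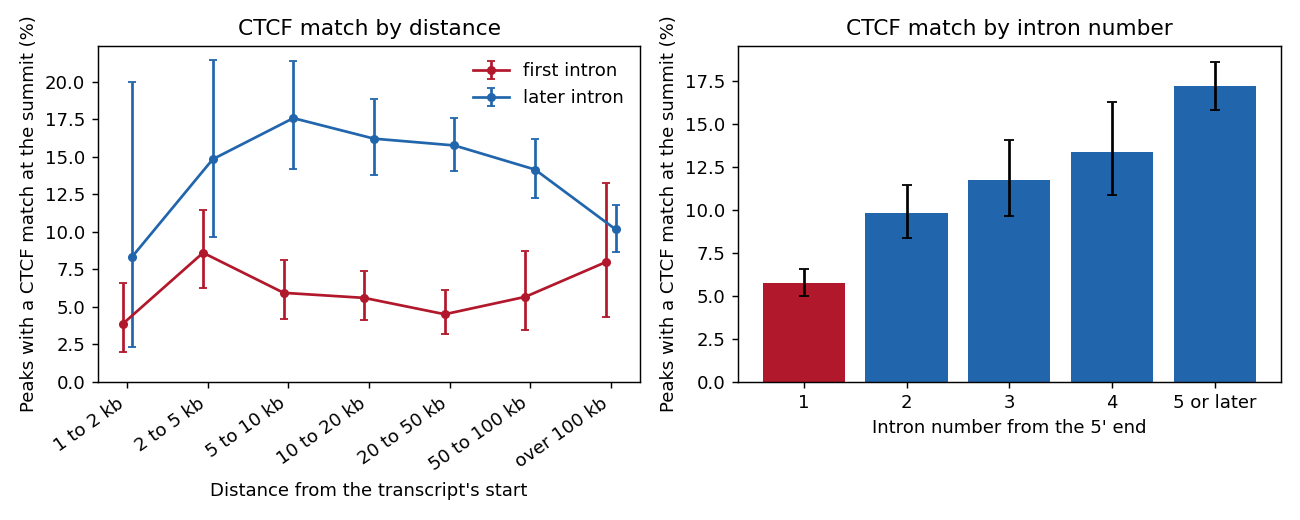
Percent of peaks with a CTCF match at the summit, left by distance from the transcript's start for first (red) and later (blue) introns, right by intron number, with exact 95% intervals. The share climbs from 5.75% in first introns to 17.2% from intron 5 on, and at 5 to 50 kb the intervals of first and later introns lie apart.

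Counted per length, first introns held fewer CTCF peaks than later introns and more peaks without a match. Peaks with a CTCF match numbered 0.923 per Mb (0.801 to 1.06) in first introns, 1.44 (1.34 to 1.54) in later introns and 0.980 (0.929 to 1.03) in intergenic sequence. Without a match the densities were 15.1, 8.75 and 5.13. The first-to-later ratio was thus 0.641 (0.548 to 0.748) for CTCF peaks and 1.73 (1.65 to 1.81) for the rest. Matching letters were about as frequent, at 65.6 CTCF matches per Mb of first and 63.9 per Mb of later introns. Of those matches 1.90% (1.69 to 2.14%) lay inside a peak in first introns and 2.81% (2.64 to 2.98%) in later ones. For the other motifs the order was the opposite: 3.06% against 1.98% for ETS, 3.04% against 1.70% for NF-kB, 1.47% against 0.927% for AP-1, 1.42% against 0.882% for RUNX and 4.40% against 1.72% for CREB. As a background, peaks covered 0.947% of eligible first-intron and 0.602% of later-intron bases.

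CTCF peaks in first introns were narrower and had a lower −log10 p than those without a match, as in the other classes. Their median width was 424 bp against 558 bp without a match, their median −log10 p 61.0 against 86.8, and their median signal 11.3 against 10.1. In later introns the widths were 463 and 575 bp and the −log10 p 67.5 and 84.2, and in intergenic sequence 456 and 594 bp, and 70.8 and 89.3. The strongest after that of Rere (29.1) were in Pkig (25.1), Pex14 (24.9), Mccc2 (23.5) and Zbtb20 (23.0). The 204 peaks were scattered over 183 genes, of which 14 had more than 1. The motif pointed along the gene's strand in 79 windows and against it in 123, with 2 holding both, so 39.1% (32.3 to 46.2%) of those with 1 direction pointed along. In later introns 45.6% (42.2 to 49.1%) did.

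Nearly all peaks of any class were present in the authors' pseudoreplicated list, which rests on the same alignment. Of 3549 first-intron peaks, 3540 (99.7%) overlapped a peak of that list, whether 1 bp or 50% of both intervals was asked, against 99.9% of all 34610 peaks at 1 bp.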

How the data were processed

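ATAC-seq of 2 technical replicates of 1 biological replicate was measured, and per the deposited file listings the authors pooled them into 3 peak lists on mm10, of which the ranked list was not used. The lists have no header line, and by the narrowPeak column order the authors deposited an enrichment signal and a −log10 p per summit. Aligner, peak caller and any shift of read ends: not given in the sources used here. The depth is unknown.

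Positions were compared with GRCm38.p6 and GENCODE M21 on 21 chromosomes, and start sites of all transcripts were used. Each base was called promoter, exon, first intron, later intron, other intron or intergenic, in that order. A gene's promoter was called open when a peak of any class, first-intron peaks included, overlapped the 1 kb on either side of a principal TSS. Densities have exact Poisson and shares exact Clopper-Pearson 95% intervals, ratios of densities or shares an interval conditional on their sum, and no p-value was computed because there is 1 biological sample. The 31 consensus motifs were searched on both strands. The functions were tested on simulated data. Python 3.11, NumPy 2.4.6, pandas 2.3.3, SciPy 1.17.1 and Matplotlib 3.10.9 were used.

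The members, the 15 gene lists and the motifs were chosen with earlier results of these data known. Named genes are Foxp3, Il2ra, Ctla4, Ikzf2, Tnfrsf18 and Cd4, the 10 with most first-intron peaks, those of the 10 highest signals, and from each list the 3 with most peaks and up to 2 without, of which 2 genes are not reported here. Other names, such as the densest genes, the longest introns without a peak and those with CTCF or CpG-rich peaks, were chosen after their values were seen. Alternatives changed the list, the threshold, the position, the distance from a TSS, the TSS set, the transcripts, the motif window and the overlap.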

Additional observations from a re-analysis of the deposited data

How the results depend on the processing

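With the pseudoreplicated list, first-intron peaks numbered 6999 (11.9% of peaks), 18.9% of genes had one, and the first-to-later ratio of median signal was 0.838 in place of 0.813. Peaks at or above the median signal left 1099 (6.35%), with 25.9% within 10 kb of the start, 5.93% of genes, a density ratio of 1.10 and a signal ratio of 0.975. Peaks at or above the median −log10 p, added after seeing the data, left 1300 (7.51%), 6.28% of genes and a density ratio of 1.73, with motif ratios of 2.05 for CTCF, 8.02 for ETS, 2.05 for RUNX and 2.60 for AP-1. With 500 bp from a TSS the share was 11.6%, the density ratio 1.65 and the share within 10 kb 44.9%. With 2500 bp these and the gene share were 8.17%, 29.9% within 10 kb and 14.9% of genes, and the signal ratio was 0.867. Transcripts tagged appris_principal_1 alone gave 7.45% of peaks, 11.8% of genes and a density ratio of 1.68. Interval midpoints gave motif ratios of 5.34 for ETS and 1.56 for RUNX. Windows of 100 bp gave 6.91 for CTCF, 9.93 for ETS, 2.34 for RUNX, 2.76 for AP-1 and 5.38 for NF-kB. The stricter CTCF consensus gave a first-to-later CTCF ratio of 0.326, and over its 11 alternatives, all added after seeing the data, that ratio ranged from 0.326 to 0.437. The other 90 values stayed within the interval of the reported one, or within 1.5 times for counts, with TSSs of protein-coding genes only and without Gm20388 throughout. The density ratio stayed above 1 in all 9 alternatives. The cause of these changes was not tested. Leaving out a replicate was not possible because the lists are pooled. No paired analysis was possible because there is 1 group. Unknown depth limits any statement that a site is closed.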
